A study of Mus musculus with 9 samples.

Results

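The circadian clock genes were followed in 9 microarrays of sorted mouse back skin cells, in which 10 genes, Dbp, Tef, Nr1d2, Per1, Per2, Per3, Arntl, Npas2, Clock and Cry1, were taken by symbol from 12393 named genes. Each gene was represented by its brightest probe set, a group of short probes for 1 transcript, out of 19 probe sets annotated to these 10 symbols alone. The test covered 9 of the 10, among 7786 genes tested, because the probe set of Per2 lay above its array's median in only 2 of 9 arrays and 3 were required. The mice were virgin CD1 females carrying Lef1RFP and K14H2BGFP, a red reporter under Lef1 control and a green histone fusion under keratin 14 control, and all groups share both reporters. Dermal papilla cells, the mesenchymal cluster below the follicle, were sorted as red and not green, without CD45, CD117, integrin alpha 7 and, by the titles, CD34. Hair germ cells, the small epithelial cluster next to the papilla, were green, not red, CD34 negative and high for P-cadherin. Bulge cells, the epithelial stem cell region above the germ, were green, not red, CD34 positive and low for P-cadherin. Every population was collected on postnatal days 43, 56 and 69, labelled early, middle and late telogen (the resting phase of the hair follicle), with 1 array for each population and day.

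In the mammalian clock, CLOCK or its paralogue NPAS2 pairs with BMAL1, the product of Arntl, and the pair activates genes through E-boxes, among them the period (Per) and cryptochrome (Cry) genes, whose proteins repress the pair in turn. REV-ERB beta, the product of Nr1d2, represses Arntl through ROR response elements, and DBP and TEF, PAR-type bZIP factors, activate genes through D-boxes. Most of these transcripts rise and fall over the day in skin as in other tissues, and loss of Bmal1 delays the start of hair growth in mice. The labels give neither the hour of collection nor whether arrays of 1 day share animals, so hour of collection and day cannot be told apart.

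The binding motifs of this circuit were searched on both strands of 300-base promoter windows from RefSeq (GRCm38.p6; 250 bases before to 50 after a gene's start), which were at hand for 9 of the 10 genes. Of 14 windows of these genes, 6 held a motif, in 5 genes. The E-box was searched as CACGTG, the E-prime box, a variant with another last base, as CACGTT, the D-box as TTANGTAA and the ROR response element by name, and no match overlapped another. Of 32851 promoter windows of all genes, 7.15% held the E-box, 4.68% the E-prime box, 2.32% the D-box and 0.384% the ROR response element. A match is a description of these letters, not a binding site. Windows of Tef, Per1 and Cry1 are shown 5′ to 3′ for the E-box, the element read by the CLOCK and BMAL1 pair, with motifs in capitals. They lie at chr15:81802423-81802722 (plus strand), chr11:69098699-69098998 (plus strand) and chr10:85185005-85185304 (minus strand), and the Cry1 window also holds an E-prime box, read on the opposite strand as AACGTG.
Tef: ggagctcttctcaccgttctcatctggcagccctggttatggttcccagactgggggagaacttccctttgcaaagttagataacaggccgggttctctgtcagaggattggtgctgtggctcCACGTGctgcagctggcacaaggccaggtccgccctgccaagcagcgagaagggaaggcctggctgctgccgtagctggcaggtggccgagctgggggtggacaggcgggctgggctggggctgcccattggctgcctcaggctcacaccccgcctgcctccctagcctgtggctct
Per1: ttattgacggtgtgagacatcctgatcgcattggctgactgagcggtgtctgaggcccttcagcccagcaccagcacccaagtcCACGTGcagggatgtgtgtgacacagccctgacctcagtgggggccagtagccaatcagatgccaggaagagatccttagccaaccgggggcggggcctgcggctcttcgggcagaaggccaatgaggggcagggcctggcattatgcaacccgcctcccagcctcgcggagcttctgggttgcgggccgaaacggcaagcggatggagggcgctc
Cry1: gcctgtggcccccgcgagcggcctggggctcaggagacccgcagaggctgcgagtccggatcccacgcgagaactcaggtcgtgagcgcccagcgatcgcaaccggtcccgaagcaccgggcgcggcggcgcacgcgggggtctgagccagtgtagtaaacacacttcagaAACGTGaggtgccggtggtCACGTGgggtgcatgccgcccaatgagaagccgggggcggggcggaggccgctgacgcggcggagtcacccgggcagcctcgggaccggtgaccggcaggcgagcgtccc

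The window of Per3, at chr4:151044616-151044915 (minus strand), held 2 D-boxes, the element bound by DBP and TEF. A window of Arntl, at chr7:113207261-113207560 (plus strand), held the ROR response element, the site class bound by REV-ERB proteins, 26 bases past the start, where an overlapping window that ends earlier did not reach it. Both are shown with motifs in capitals. Another window of Tef also held an E-box, and no motif was found in the windows of Dbp, Nr1d2, Npas2 and Clock.
Per3: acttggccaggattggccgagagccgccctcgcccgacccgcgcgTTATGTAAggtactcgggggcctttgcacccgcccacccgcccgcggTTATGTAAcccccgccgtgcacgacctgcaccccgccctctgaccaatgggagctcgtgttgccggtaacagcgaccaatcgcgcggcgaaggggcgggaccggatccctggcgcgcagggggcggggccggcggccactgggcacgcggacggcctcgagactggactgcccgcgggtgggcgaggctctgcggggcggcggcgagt
Arntl: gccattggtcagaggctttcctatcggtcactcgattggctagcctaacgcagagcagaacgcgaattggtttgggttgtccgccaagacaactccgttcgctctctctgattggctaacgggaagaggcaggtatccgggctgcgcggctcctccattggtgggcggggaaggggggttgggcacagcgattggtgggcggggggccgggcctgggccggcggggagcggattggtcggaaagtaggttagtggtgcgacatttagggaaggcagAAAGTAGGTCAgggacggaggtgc

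Levels are given as log2(signal + 16), with signal the deposited MAS5 intensity, and a level of 1 gene was not set against that of another, since probe sets differ in response. Papilla, keratinocyte and bulge markers followed the labels, and hair germ markers did so only in part. The summed signal of 8 dermal papilla markers was 14151 to 19274 in dermal papilla arrays, 187 to 546 in hair germ and 107 to 208 in bulge, and that of 6 keratinocyte markers was 146 to 641, 33248 to 46485 and 28100 to 31109 in the same order. The 5 bulge markers summed to 239 to 917 in dermal papilla, 421 to 862 in hair germ and 7525 to 9705 in bulge. The 7 leukocyte markers summed to 40.5 to 85.2 in dermal papilla, 210 to 438 in hair germ and 388 to 483 in bulge, and 5 melanocyte markers to 384 to 697, 2155 to 4939 and 2274 to 2980. The bulge sum of the melanocyte list came mostly from Mitf (9.10 in hair germ and 11.27 in bulge on the log2 scale), whereas Dct, Tyrp1 and Pmel, pigment genes, were at 10.605, 8.78 and 8.89 in hair germ and at 6.26, 5.05 and 5.73 in bulge. Of 3 hair germ markers, Tnfrsf19 was higher in hair germ than in bulge, Lgr5 was lower there (log2 difference -1.11, limma adjusted p = 0.0399), and Cdh3, which encodes the P-cadherin of the gate, was above the array median on 0 of 9 arrays. The part of other cells in the values of the clock genes was not tested. The ratio of the 3′ to the 5′ GAPDH control probe set, a measure of how far the labelled RNA was shortened, was 6.62, 4.13 and 3.77 in dermal papilla on days 43, 56 and 69, 8.34, 2.97 and 7.90 in hair germ, and 4.46, 5.09 and 3.96 in bulge. Fewer cells of a type and less RNA per cell cannot be told apart in such samples.

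**Figure D1:**
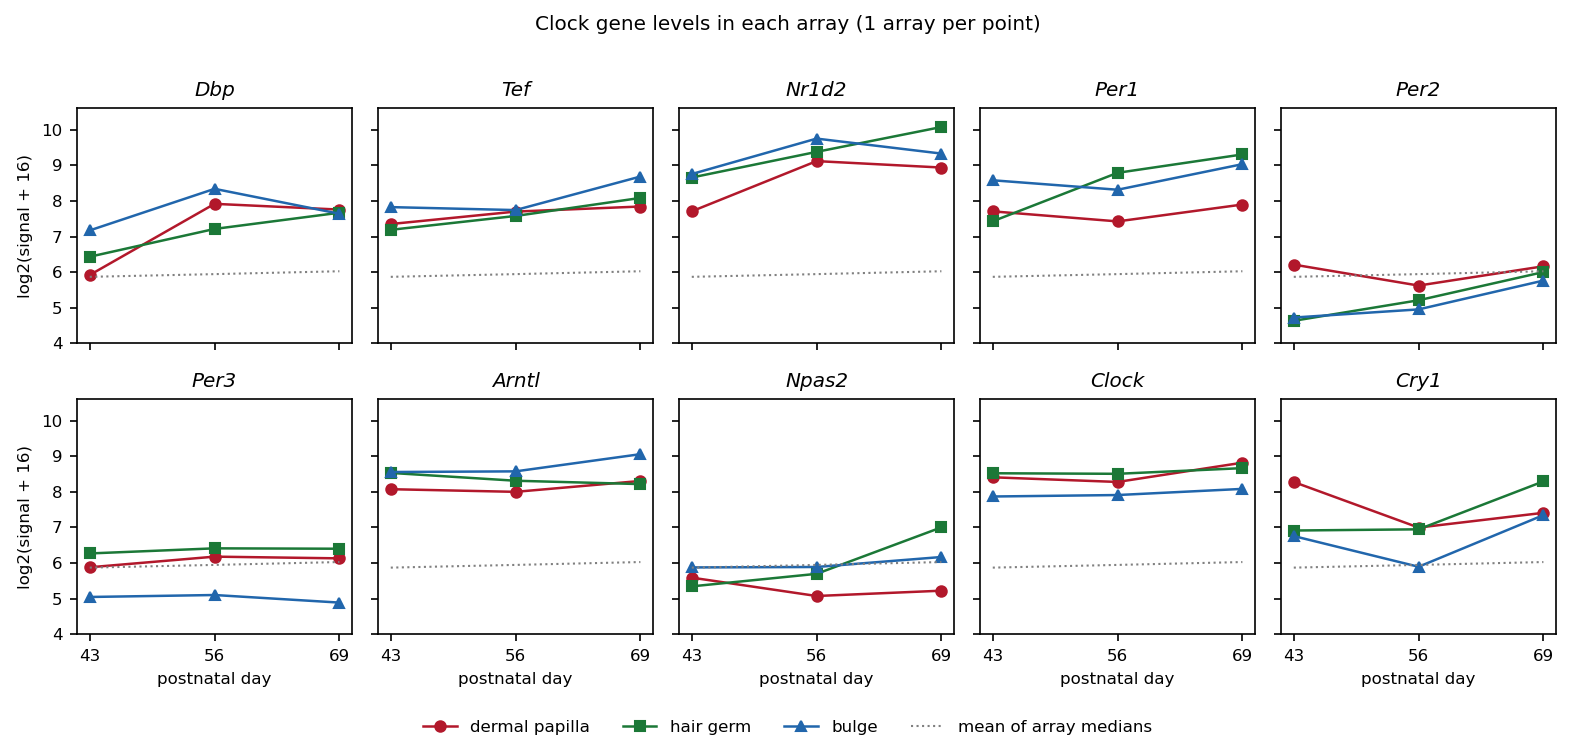
Level of each clock gene as log2(signal + 16) (vertical) by postnatal day (horizontal) in dermal papilla (circles), hair germ (squares) and bulge (triangles), 1 array per point, with the mean of the array medians of each day as a dotted line. Dbp and Nr1d2 are lowest on day 43 in each population, and Per3 lies below the dotted line in bulge on all 3 days.

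Populations were compared first, with the 3 days of a population as its 3 arrays. Against bulge, the clock genes called in dermal papilla went in both directions, with more Per3 and Clock RNA and less Per1, Nr1d2 and Arntl RNA. Hair germ had more Per3 and Clock RNA than bulge. Against hair germ, dermal papilla had less Nr1d2 RNA. A gene was called where limma's adjusted p, over all 7786 genes, was below 0.05. The calls of Clock, Arntl and Nr1d2 against bulge sat at this threshold (limma adjusted p 0.0491 to 0.0494) and ended in most alternatives given at the end. For dermal papilla against bulge, 2 of 9 members were called higher and 3 lower, and 35% of all tested genes were called. For dermal papilla against hair germ, 0 were called higher and 1 lower, against 39.2% of all tested genes. For hair germ against bulge, 2 were called higher and 0 lower, against 19.8%. The members' shares lay above, below and near these backgrounds in that order of comparisons, with only 9 genes behind each. Per3 is counted among the higher members in both comparisons with bulge, although it entered the test only through dermal papilla and hair germ. The median difference of the 9 members was -0.52, -0.23 and 0.04 in the same order of comparisons, where all tested genes had medians of -0.05, -0.15 and 0.11. The share of all tested genes whose arrays did not overlap between populations was not computed. Where a member is said below not to overlap, this is therefore a description of its arrays.

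**Figure D2:**
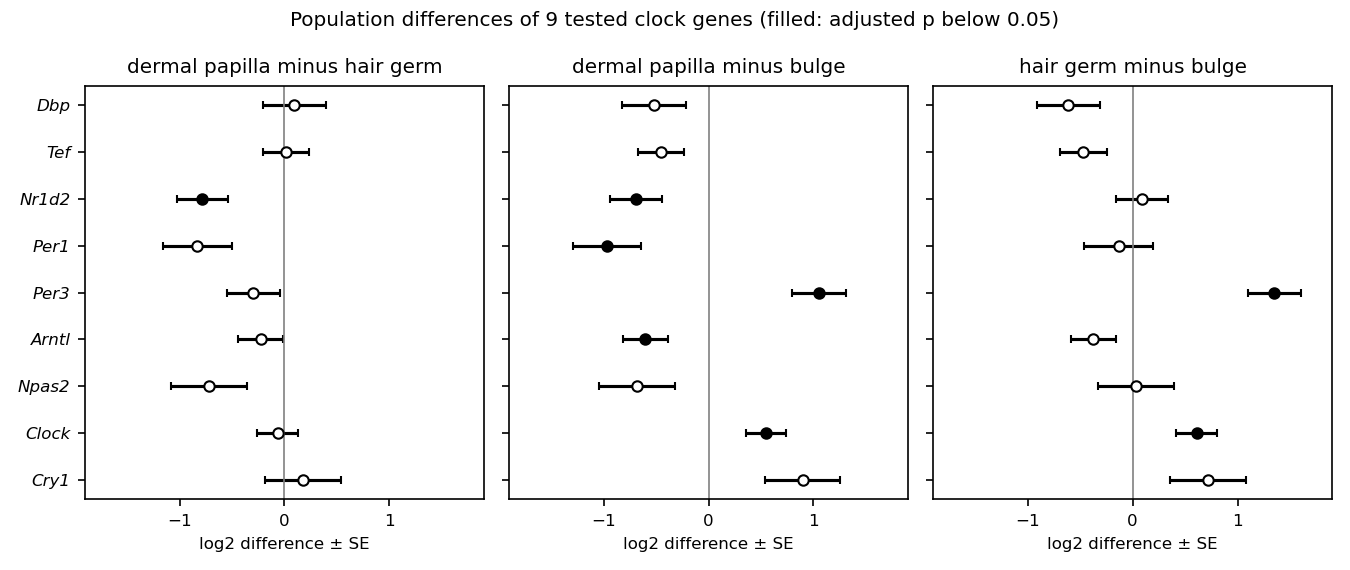
Fitted log2 difference ± SE (horizontal) of the 9 tested clock genes (rows) for dermal papilla minus hair germ, dermal papilla minus bulge and hair germ minus bulge, with 3 arrays per population; filled points had a limma adjusted p below 0.05. Per3 and Clock lie to the right of 0 in both comparisons with bulge, and Nr1d2 lies to the left of 0 in both comparisons of dermal papilla.

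Among the activators, Clock was at 8.41, 8.28 and 8.82 in dermal papilla on days 43, 56 and 69, at 8.52, 8.51 and 8.66 in hair germ, and at 7.87, 7.91 and 8.08 in bulge. Each dermal papilla and hair germ array lay above each bulge array, while dermal papilla and hair germ overlapped (8.50 ± 0.28 and 8.56 ± 0.09, SD, n = 3 each, against 7.95 ± 0.11 in bulge). Clock, whose protein binds E-boxes with BMAL1, was 1.46-fold higher in dermal papilla than in bulge (log2 difference 0.55 ± 0.19 SE, limma adjusted p = 0.0491) and 1.53-fold higher in hair germ than in bulge (0.61 ± 0.19, limma adjusted p = 0.0491). Another Clock probe set, above the median on all 9 arrays, averaged 8.23 in dermal papilla, 8.03 in hair germ and 7.31 in bulge. Both calls sat at the threshold. That of dermal papilla against bulge ended when any of 8 arrays was left out, all but the hair germ array of day 69 (differences 0.45 to 0.63, limma adjusted p 0.0516 to 0.175), and that of hair germ against bulge when any of 8 was left out, all but the dermal papilla array of day 69 (0.57 to 0.67, limma adjusted p 0.0561 to 0.188).

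Arntl, which encodes BMAL1, was highest in bulge, where Clock was lowest. It was at 8.07, 7.998 and 8.30 in dermal papilla on days 43, 56 and 69, at 8.53, 8.31 and 8.22 in hair germ, and at 8.56, 8.57 and 9.06 in bulge. All 3 dermal papilla arrays lay below all 3 bulge arrays, as did all hair germ arrays, and dermal papilla and hair germ overlapped. The mean was 8.13 ± 0.16 in dermal papilla, 8.35 ± 0.16 in hair germ and 8.73 ± 0.28 in bulge (SD, n = 3 each). Arntl was 1.52-fold lower in dermal papilla than in bulge (log2 difference -0.60 ± 0.21 SE, limma adjusted p = 0.0491). The call ended without any 1 of the 3 bulge arrays, the 3 dermal papilla arrays or the hair germ array of day 56 (-0.72 to -0.45, limma adjusted p 0.0628 to 0.245).

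Npas2, the paralogue that can stand in for CLOCK, was at 5.59, 5.07 and 5.22 in dermal papilla on days 43, 56 and 69, at 5.34, 5.69 and 6.9999 in hair germ, and at 5.87, 5.89 and 6.17 in bulge. It was above the array median in 4 of 9 arrays, the 3 bulge arrays and the hair germ array of day 69. Npas2 thus entered the test through bulge and hair germ, and its differences from dermal papilla are a description. Dermal papilla lay below bulge on every array, with means of 5.29 ± 0.27 in dermal papilla, 6.01 ± 0.87 in hair germ and 5.98 ± 0.17 in bulge (SD, n = 3 each), and no population difference of Npas2 passed with all arrays. For dermal papilla minus hair germ the fitted value was -0.72 ± 0.36 SE (limma adjusted p = 0.143). It was -0.25 without the hair germ array of day 69, -0.39 without the dermal papilla array of day 69, and -1.10 without the hair germ array of day 43, where it passed (limma adjusted p = 0.0413).

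Per3 had the smallest limma adjusted p among the 9 members in both comparisons with bulge. It was at 5.88, 6.18 and 6.13 in dermal papilla on days 43, 56 and 69, at 6.27, 6.41 and 6.40 in hair germ, and at 5.04, 5.10 and 4.89 in bulge. The 3 populations did not overlap in any pair, with means of 6.06 ± 0.16 in dermal papilla, 6.36 ± 0.08 in hair germ and 5.01 ± 0.11 in bulge (SD, n = 3 each). Per3, a period family member, was higher in dermal papilla than in bulge (log2 difference 1.05 ± 0.25 SE, limma adjusted p = 0.00741) and higher in hair germ than in bulge (1.35 ± 0.25, limma adjusted p = 0.00403). Its probe set was above the array median in 6 of 9 arrays, those of dermal papilla and hair germ, and below it in all bulge arrays, so it entered the test through the populations where it was high and its calls are a description. Its bulge signals, 13.6 to 18.3, were close to the added 16, and the size of the differences followed that choice: 1.59 and 1.97 with a pseudocount of 1, and 0.52 and 0.70 with 64, where Per1 in dermal papilla against bulge (-0.83) was larger in size. Without the filter on low values the differences kept limma adjusted p values of 0.015 and 0.00877. The other 2 Per3 probe sets were above the median on 0 arrays. Leaving out any 1 array ended neither call. Without the 3 arrays whose GAPDH ratio exceeded 6, the hair germ call ended (1.35, limma adjusted p = 0.0968), with hair germ left at 1 array.

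Per1, a period gene that is also induced by glucocorticoids, was at 7.71, 7.43 and 7.90 in dermal papilla on days 43, 56 and 69, at 7.43, 8.79 and 9.31 in hair germ, and at 8.58, 8.32 and 9.04 in bulge. Every dermal papilla array lay below every bulge array, and hair germ overlapped both. With means of 7.68 ± 0.24 in dermal papilla, 8.51 ± 0.97 in hair germ and 8.64 ± 0.36 in bulge (SD, n = 3 each), Per1 was 1.95-fold lower in dermal papilla than in bulge (log2 difference -0.97 ± 0.33 SE, limma adjusted p = 0.0407). The difference from hair germ, -0.83 ± 0.33, did not pass (limma adjusted p = 0.066), and it passed without the hair germ array of day 43 (-1.36, limma adjusted p = 0.001) or the dermal papilla array of day 43 (-1.13, limma adjusted p = 0.0275). Without the hair germ array of day 56 it was -0.55 and without that of day 69 it was -0.59 (limma adjusted p = 0.279 and 0.242). The call against bulge ended without any 1 of the 3 bulge arrays or the dermal papilla arrays of days 56 and 69 (-1.14 to -0.73, limma adjusted p 0.0596 to 0.207). Of 10 glucocorticoid response genes, 5 were called higher and 4 lower in dermal papilla than in bulge, against 35% of all tested genes, and their part in the Per1 difference was not tested. These counts are a description: Cdkn1c was above the array median in dermal papilla arrays alone, and Zbtb16 only in hair germ and bulge arrays.

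Per2, the remaining period gene, was at 6.21, 5.62 and 6.16 in dermal papilla on days 43, 56 and 69, at 4.63, 5.21 and 6.002 in hair germ, and at 4.72, 4.95 and 5.76 in bulge. Its means were 5.9999 ± 0.33 in dermal papilla, 5.28 ± 0.69 in hair germ and 5.15 ± 0.55 in bulge (SD, n = 3 each), and the populations overlapped in each pair. Only the dermal papilla arrays of days 43 and 69 exceeded their array's median. With no filter on low values it could be fitted, and no difference passed; the closest was dermal papilla minus bulge at 0.85 (limma adjusted p = 0.0888).

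Cry1, the cryptochrome that represses the CLOCK and BMAL1 pair, was at 8.28, 6.99 and 7.41 in dermal papilla on days 43, 56 and 69, at 6.91, 6.94 and 8.29 in hair germ, and at 6.75, 5.89 and 7.34 in bulge. The bulge array was the lowest of the 3 on every day, while dermal papilla was highest on day 43 and hair germ on day 69. The populations overlapped across days, with means of 7.56 ± 0.65 in dermal papilla, 7.38 ± 0.79 in hair germ and 6.66 ± 0.73 in bulge (SD, n = 3 each). Neither difference from bulge passed: it was 0.90 ± 0.36 SE for dermal papilla (limma adjusted p = 0.0767) and 0.72 ± 0.36 for hair germ (limma adjusted p = 0.188). Both rested on single arrays. The dermal papilla difference was 0.44 without the dermal papilla array of day 43 (limma adjusted p = 0.376) and 0.58 without the 3 arrays of high GAPDH ratio (limma adjusted p = 0.205), and it passed without the dermal papilla array of day 69 (1.37, limma adjusted p = 0.00966) or the hair germ array of day 43 (0.90, limma adjusted p = 0.0358). The hair germ difference was 0.40 without the hair germ array of day 69 (limma adjusted p = 0.528) and passed without that of day 43 (1.16, limma adjusted p = 0.0486).

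Nr1d2, encoding REV-ERB beta, was at 7.71, 9.12 and 8.94 in dermal papilla on days 43, 56 and 69, at 8.66, 9.38 and 10.08 in hair germ, and at 8.76, 9.75 and 9.33 in bulge. Within each day the dermal papilla array was the lowest of the 3, although the populations overlapped across days (8.59 ± 0.77, 9.37 ± 0.71 and 9.28 ± 0.50 in that order, SD, n = 3 each). In the fit that takes out the day, Nr1d2 was 1.72-fold lower in dermal papilla than in hair germ (log2 difference -0.78 ± 0.25 SE, limma adjusted p = 0.0268) and 1.61-fold lower than in bulge (-0.69 ± 0.25, limma adjusted p = 0.0494). With no day term the limma adjusted p values were 0.159 and 0.229. The difference from hair germ was -0.65 without the dermal papilla array of day 43, -0.77 without that of day 69, -0.79 without the hair germ array of day 43 and -0.53 without that of day 69, and in each of these the call ended (limma adjusted p 0.0633 to 0.125). Without all 3 arrays of high GAPDH ratio it was -0.20 (limma adjusted p = 0.682). The call against bulge ended without any 1 of the 3 dermal papilla arrays, the bulge arrays of days 43 and 56 or the hair germ array of day 43 (-0.84 to -0.55, limma adjusted p 0.0553 to 0.228).

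The PAR bZIP genes did not pass in any population comparison with the probe sets used, and for Tef the choice of probe set decided this. Dbp was at 5.92, 7.92 and 7.76 in dermal papilla on days 43, 56 and 69, at 6.43, 7.21 and 7.67 in hair germ, and at 7.17, 8.34 and 7.64 in bulge. Tef was at 7.35, 7.70 and 7.84 in dermal papilla, at 7.19, 7.58 and 8.09 in hair germ, and at 7.83, 7.74 and 8.69 in bulge. The populations overlapped across days for both genes, although the bulge array of Tef was the highest of the 3 on each day. The log2 difference of Tef was -0.45 ± 0.22 SE for dermal papilla minus bulge (limma adjusted p = 0.143) and -0.47 ± 0.22 for hair germ minus bulge (limma adjusted p = 0.168). Both differences passed with the most variable probe set (-0.75 and -0.86, limma adjusted p = 0.0365 and 0.0329) and with the mean over probe sets (-0.60 and -0.66, limma adjusted p = 0.0321 and 0.0348). Mean levels of Dbp were 7.20 ± 1.11 in dermal papilla, 7.11 ± 0.63 in hair germ and 7.72 ± 0.59 in bulge, and those of Tef were 7.63 ± 0.25, 7.62 ± 0.45 and 8.09 ± 0.52 in the same order (SD, n = 3 each).

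Days were compared next, over the 3 populations together. Dbp and Nr1d2 were lowest on day 43 in each of the 3 populations, and Tef was highest on day 69 in each. No member passed in any comparison of days, and neither did any other gene: of 7786 genes, limma called 0% between days 69 and 43, 0% between days 56 and 43 and 0% between days 69 and 56. At an unadjusted p below 0.05 there were 4, 2 and 2 of the 9 members and 565, 398 and 551 of all tested genes in that order. The fitted difference was above 0 for 9 of 9 members in day 69 minus day 43 (median 0.53, against 0.07 over all tested genes), for 5 of 9 in day 56 minus day 43 (0.17 against 0.05) and for 7 of 9 in day 69 minus day 56 (0.29 against 0.02). These 3 comparisons share arrays.

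Dbp and Nr1d2 had the largest fitted differences from day 43 among the members. Dbp was 2.49-fold higher on day 56 than on day 43 (log2 difference 1.32 ± 0.30 SE, limma adjusted p = 0.845, unadjusted rank 2 of 7786) and 2.27-fold higher on day 69 than on day 43 (1.18 ± 0.30, limma adjusted p = 0.65). Nr1d2 was 2.06-fold higher on day 56 than on day 43 (1.04 ± 0.25, limma adjusted p = 0.845, unadjusted rank 3) and 2.11-fold higher on day 69 than on day 43 (1.08 ± 0.25, limma adjusted p = 0.65). Neither passed. Tef differed by 0.75 ± 0.22 for day 69 minus day 43 (limma adjusted p = 0.678) and 0.53 ± 0.22 for day 69 minus day 56 (limma adjusted p = 0.696), Per1 by 0.84 ± 0.33 for day 69 minus day 43 (limma adjusted p = 0.681), and Cry1 by 1.07 ± 0.36 for day 69 minus day 56 (limma adjusted p = 0.682). The Per1 difference was 0.31 without the hair germ array of day 43. Without the 3 arrays of high GAPDH ratio, which include 2 of the 3 of day 43, the differences of day 69 minus day 43 were 0.60 for Dbp, 0.64 for Nr1d2 and 0.39 for Per1. The Tef difference of day 69 minus day 56 was 0.35 without the bulge array of day 56.

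The signs within populations gave a further view. On day 69 against day 43, 5 of 9 members were higher in all 3 populations (Dbp, Tef, Nr1d2, Per1 and Clock), as were 17.5% of all tested genes. On day 56 against day 43 there were 3 (Dbp, Nr1d2 and Per3), against 18%, and on day 69 against day 56 there were 5 (Tef, Per1, Npas2, Clock and Cry1), against 16.5%. Ranked by the smallest of the 3 differences, day 56 against day 43, Dbp stood at 2 (smallest difference 0.78, in hair germ) and Nr1d2 at 7 (0.72, in hair germ) of 7786 genes. For day 69 against day 43 Nr1d2 stood at 48 (0.58), Tef at 85 (0.49) and Dbp at 98 (0.47). These ranks describe 9 arrays and carry no test.

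**Figure D3:**
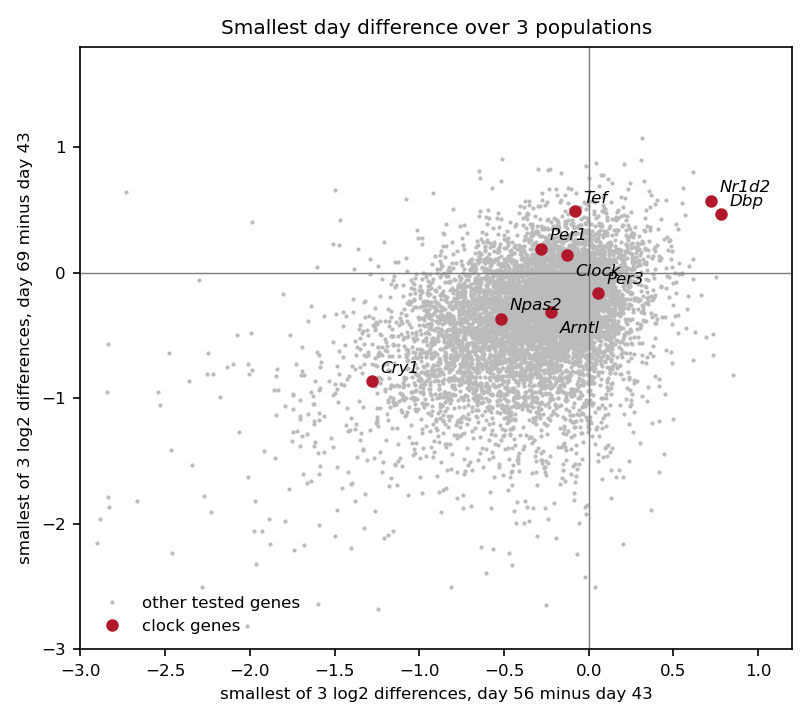
Smallest of the 3 within-population log2 differences for day 56 minus day 43 (horizontal) and day 69 minus day 43 (vertical), for the 9 tested clock genes (large points, named) and the other tested genes (small points; 19 genes lie outside the axes). Dbp and Nr1d2 lie at the right edge, above 0 on both axes, and Cry1 lies at the lower left.

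Values of other gene sets also differed between days, and the sets did not all go the same way. For day 69 minus day 43, 9 of 10 glucocorticoid response genes were above 0 (median 1.11) and 13 of 14 immediate early genes, which respond to stress and to cell dissociation (median 0.58). Of 8 tested mitosis genes, 3 were above 0 (-0.05). For day 69 minus day 56 the same sets had 10 of 10 (0.71), 14 of 14 (0.53) and 8 of 8 (0.53) above 0. For day 56 minus day 43 they had 7 of 10 (0.23), 6 of 14 (-0.04) and 0 of 8 (-0.57). Genes for proteins that modify or bind clock proteins had 5 of 11 (-0.005), 3 of 11 (-0.18) and 8 of 11 (0.15) in that order of comparisons. None of these genes was called, and their part in the values of the clock genes was not tested.

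**Figure D4:**
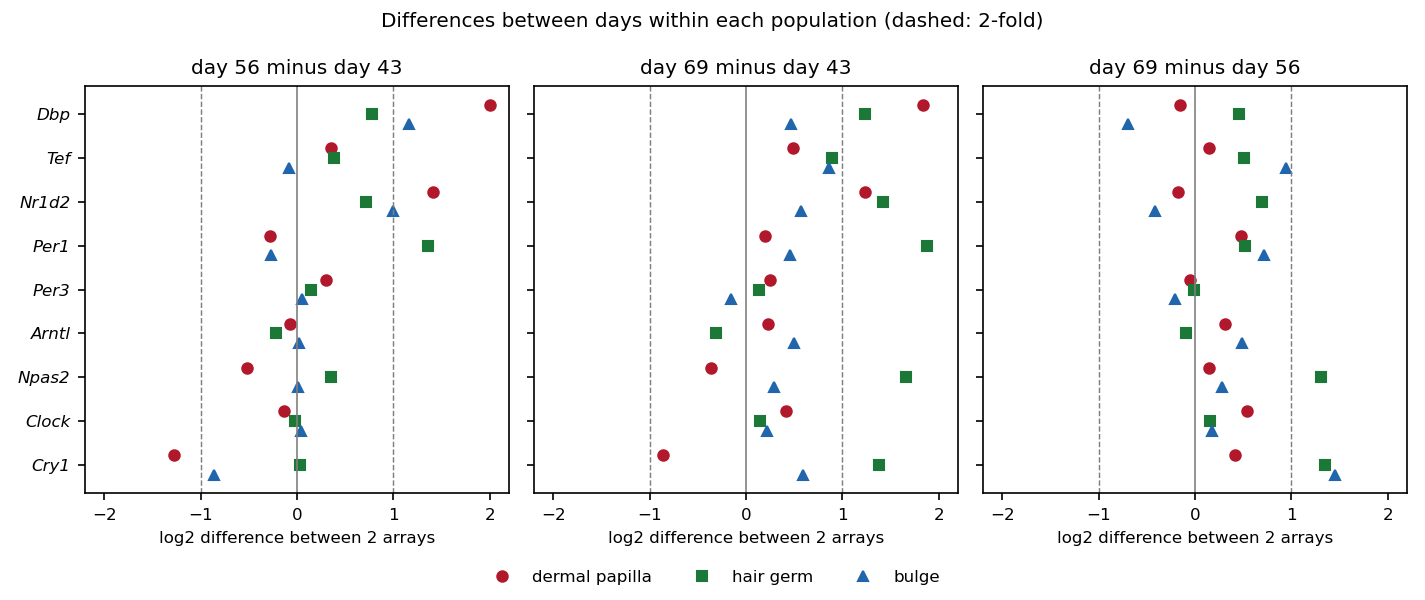
Log2 difference between 2 arrays of 1 population (horizontal) for the 9 tested clock genes (rows), for day 56 minus day 43, day 69 minus day 43 and day 69 minus day 56, in dermal papilla (circles), hair germ (squares) and bulge (triangles); dashed lines mark 2-fold. Dbp and Nr1d2 lie right of 0 in the first 2 panels in all populations, while Cry1, Per1 and Npas2 spread over the populations.

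Within a population, 1 array stood for each day, so there was no test, and members at least 2-fold apart were counted. In dermal papilla, Dbp and Nr1d2 were higher on day 56 than on day 43 (3.999-fold and 2.66-fold) and Cry1 was 2.43-fold lower, 3 of 9 members against 7.17% of tested genes. On day 69 against day 43, Dbp (3.58-fold) and Nr1d2 (2.35-fold) were higher there, against 8.19%, and on day 69 against day 56 no member reached 2-fold, against 3.94%. The dermal papilla array of day 43 thus stood apart for these 3 genes, and its GAPDH ratio, 6.62, was the highest of the 3 dermal papilla arrays. The summed epithelial markers were also higher on it. Over days 43, 56 and 69 the keratinocyte markers summed to 641, 146 and 147 in dermal papilla and the bulge markers to 917, 239 and 296. Krt15 was at 8.13, 4.29 and 4.06 and Fgf18 at 9.14, 5.11 and 5.55 on the log2 scale. Not every marker went this way. Krt14, a keratinocyte marker, was lowest in dermal papilla on day 43 (4.41) and highest on day 69 (5.78). The bulge markers Cd34 and Lhx2 were highest in dermal papilla on day 69 (5.69 and 4.95, with 5.34 and 4.66 on day 43). The part of RNA quality or of epithelial RNA in the Dbp, Nr1d2 and Cry1 values was not tested.

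In hair germ, 5 of 9 members were at least 2-fold higher on day 69 than on day 43, against 12.4% of tested genes. They were Per1 (3.68-fold), Npas2 (3.16-fold), Nr1d2 (2.68-fold), Cry1 (2.60-fold) and Dbp (2.36-fold). On day 56 against day 43 only Per1 was (2.57-fold), against 8.25%, and on day 69 against day 56 Npas2 (2.47-fold) and Cry1 (2.54-fold) were, against 12%. The GAPDH ratios of the arrays of days 69 and 43 were 7.90 and 8.34, close to each other, and that of day 56 was 2.97. Some other summed signals also rose over the days in hair germ. On days 43, 56 and 69 the leukocyte markers were at 210, 268 and 438, the glucocorticoid response genes at 20155, 23639 and 38059, and the immediate early genes at 51635, 53677 and 76134. Within the leukocyte list, Cd74 did not rise (7.13, 6.98 and 7.11 on the log2 scale). The mitosis genes were highest on day 43, at 9575, 3246 and 4935. The part of these gene sets was not tested.

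In bulge, the population with the fewest genes past 2-fold, Dbp was 2.25-fold higher on day 56 than on day 43, against 0.565% of tested genes, and Nr1d2 was just short of the limit at 1.99-fold. On day 69 against day 56 only Cry1 was past it (2.73-fold higher), against 3.4%, and on day 69 against day 43 no member was, against 2.59%. The GAPDH ratios of the bulge arrays spanned 3.96 to 5.09.

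The members were also set against each other over the 9 arrays after each gene's population means were subtracted, as a description in which arrays share their labelling and scaling. Dbp and Nr1d2 had the highest Pearson correlation of any pair of members (0.97), followed by Dbp and Per3 (0.83), Npas2 and Cry1 (0.81), Per1 and Npas2 (0.80) and Tef and Per1 (0.77). Dbp was at -0.34 with Cry1 and -0.15 with Arntl, and Per3 was at -0.56 with Cry1. Among the 7785 other tested genes, those most like Dbp were Nr1d2 (0.971), Ddit4 (0.964), Hibadh (0.955), Rpl6 (0.954) and Smarce1 (0.954). Those most like Arntl were Tmem39a (0.956), Tesk2 (0.955), Ctnnal1 (0.946), Mgst1 (0.943) and Rab11fip5 (0.940).

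Other probe sets of the members gave a partial check. A further Tef probe set, above the median on all 9 arrays, had a correlation of 0.88 with the one used, and that of Clock 0.71. A further Dbp probe set, above the median on 4 arrays, had 0.75. It was lowest on day 43 in dermal papilla (4.75, with 6.12 and 6.40 on days 56 and 69) and in bulge (5.34, with 6.18 and 6.02), but in hair germ it was lower on day 69 (5.07) than on day 43 (5.29), with 6.06 on day 56. The other Clock probe set was highest on day 43 in dermal papilla (8.76, with 7.94 and 7.99 on days 56 and 69), where the one used was highest on day 69.

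Other clock and clock output genes also differed between populations. Of 20 listed genes, 15 were on the array and 14 were tested. For dermal papilla against hair germ 4 were called higher and 6 lower (39.2% of all tested genes were called), for dermal papilla against bulge 5 and 2 (35%), and for hair germ against bulge 6 and 1 (19.8%), with median differences of -0.41, 0.08 and 0.63. The counts include Rorb, Tspan4, Timeless and Nr1d1, which entered the test through populations where they were high, so the counts are a description. For the days 0 were called, and 11 of 14 were above 0 for day 69 minus day 43 (median 0.42). Bhlhe40, encoding the E-box repressor DEC1, was higher in dermal papilla (log2 difference 3.63 ± 0.32 SE) and hair germ (2.81 ± 0.32) than in bulge. Timeless, known in mammals for its role in DNA replication, averaged 7.03 ± 0.38 in dermal papilla, 7.29 ± 0.64 in hair germ and 5.36 ± 0.39 in bulge, where it was below the array median. All 8 tested mitosis genes were called higher in hair germ than in bulge (against 19.8% of all tested genes). Among them, Ccnb2, Plk1, Aurka and Kif2c were above the array median in hair germ arrays alone and entered the test through them. In dermal papilla against bulge, 0 of the 8 were called higher and 3 lower (against 35%). These mitosis counts are a description. The part of cell division in the Timeless values was not tested. Tspan4, a tetraspanin, and Rorb, an activator at ROR response elements, were above the median in the 3 dermal papilla arrays alone and entered the test through them. Tspan4 averaged 8.57 ± 0.85 in dermal papilla, 5.23 ± 0.79 in hair germ and 4.55 ± 0.59 in bulge, and Rorb 6.54 ± 0.32, 4.40 ± 0.34 and 4.36 ± 0.26 in the same order (SD, n = 3 each). Of 3 close paralogues of members on this list, named after their values were seen, Cry2 was lower in dermal papilla than in bulge (-1.09 ± 0.24) and in hair germ (-0.90 ± 0.24). Nr1d1 was lower in dermal papilla than in hair germ (-1.40 ± 0.32). It was above the array median on 3 of 9 arrays, none of them dermal papilla. Nr1d1 thus entered the test through hair germ and bulge arrays, and its difference is a description. Hlf, a PAR bZIP factor like DBP and TEF, was lower in dermal papilla than in hair germ (-1.03 ± 0.25) and higher in hair germ than in bulge (1.46 ± 0.25). The differences given with an SE here had limma adjusted p below 0.05. Of 11 tested genes for proteins that modify or bind clock proteins, fewer were called than the same backgrounds of 39.2%, 35% and 19.8%: 0 higher and 2 lower in dermal papilla than in hair germ (Csnk1a1, a casein kinase, -0.85, and Huwe1, a ubiquitin ligase, -0.74), 0 and 1 in dermal papilla against bulge (Sirt1, a deacetylase, -0.73), and 1 and 0 in hair germ against bulge (Huwe1, 0.89).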

How the data were processed

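The authors deposited probe set intensity values on a linear scale (MAS5 signals made with GCOS, per the submitters' processing notes; versions and scaling target are not given in the sources used here), from RNA amplified in 2 rounds per the labels. Probe sets were named from the supplied platform annotation: of 22690, 20380 had 1 gene, 691 several and 1555 none, 64 were controls, and 20351 symbols were matched to the gene table. Values were then set to log2(signal + 16) without rescaling, each gene kept its brightest probe set, and genes above the array median in at least 3 of 9 arrays were tested. A linear model with population and day as additive terms (4 residual degrees of freedom) was fitted to all 7786 genes with limma 3.58.1 in R 4.3.3 (eBayes with a trend), two-sided, with Benjamini-Hochberg adjustment. Populations differing in their change over days cannot be tested with 1 array each. The labels name no separate animals behind the arrays, so p-values do not measure a spread between animals. They rest on the spread left between arrays after population and day are fitted. Days serve as the replicates of a population, and populations as the replicates of a day. Arrays give no count depth, and their number limits the precision. The fit was also run on simulated data, and no statement here rests on that run. The 10 members and all gene lists were chosen with earlier results of these data known. Genes were named by a rule: all members, up to 4 of each other list, and the 5 genes most like Dbp and Arntl. Outside this rule, Cry2, Nr1d1 and Hlf were named after their values were seen. Some larger called differences on their list, such as those of Wee1 and Rora, are not given. Alternatives were other pseudocounts, scalings, filters, probe set choices, model terms and arrays left out. Motifs were searched in RefSeq promoter windows.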

Additional observations from a re-analysis of the deposited data

Results flagged for a closer look

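For Per1, Npas2 and Cry1 a day difference had opposite signs in 2 populations, which lay at least 2-fold apart, and reached 2-fold in at least 1 of them; smaller differences of Dbp, Nr1d2, Tef, Arntl and other members also differed in sign between populations. Each value rests on 1 array per day, and the differences between populations were not tested. Per1 differed, day 56 minus day 43, by -0.28 in dermal papilla and 1.36 in hair germ on the log2 scale, which is -1.64 between them, and by 1.36 in hair germ and -0.27 in bulge, which is 1.63. Npas2 differed, day 69 minus day 43, by -0.37 in dermal papilla and 1.66 in hair germ, which is -2.03. Cry1 differed, day 69 minus day 43, by -0.87 in dermal papilla and 1.38 in hair germ, which is -2.25, and, day 56 minus day 43, by -1.28 in dermal papilla and 0.03 in hair germ, which is -1.31. The GAPDH ratios of these arrays on days 43, 56 and 69 were 6.62, 4.13 and 3.77 in dermal papilla, 8.34, 2.97 and 7.90 in hair germ and 4.46, 5.09 and 3.96 in bulge, and their part in these values was not tested.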

How the results depend on the processing

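Most population calls sat near the threshold, and the count of called members moved with the processing. For dermal papilla against bulge the 5 called members became 3 with a pseudocount of 1 or quantile normalization, 2 when above the median in at least 6 arrays was required, with no day term or without the 3 arrays of GAPDH ratio above 6, and 1 with no filter or no variance trend. For dermal papilla against hair germ the 1 call became 0 with quantile normalization, median centring or no day term. For hair germ against bulge the 2 calls became 1 with a pseudocount of 1, quantile normalization, median centring, no filter, the stricter filter, no variance trend or no day term, and 0 without the 3 arrays of GAPDH ratio above 6. With the mean over probe sets the counts for these comparisons were 6, 1 and 3, and with the most variable probe set 4, 1 and 2, Tef being among the called against bulge in both. Leaving out 1 array gave 1 to 5, 0 to 2 and 1 to 2 calls in that order of comparisons. Per3 passed in 20 of 20 alternatives for dermal papilla against bulge (0.52 to 1.59) and in 19 of 20 for hair germ against bulge (0.70 to 1.97). These Per3 counts are a description, since Per3 entered the test through the populations where it was high. Per1 passed against bulge in 12 of 20, Nr1d2 in 12 of 20 against hair germ and 5 of 20 against bulge, Arntl in 6 of 20, and Clock in 5 of 20 in dermal papilla and 3 of 20 in hair germ. Differences not called as reported passed in some alternatives: Tef in 2 of 20 in each comparison with bulge, Cry1 in 2 of 20 for dermal papilla and 1 of 20 for hair germ against bulge, and Per1 in 3 of 20 and Npas2 in 1 of 19 for dermal papilla against hair germ. The Npas2 count is a description as well, since Npas2 entered the test through bulge and hair germ arrays. Comparisons of days gave 0 called members in every alternative run. Of 54 member differences, 22 had an unadjusted limma p below 0.05 in the main fit or were called in some run. These 22 kept their sign in all alternatives run, and of the other 32, 17 changed it in at least 1. The 22 were picked by their p-values in these same data, so the split is no measure of stability. Scaling moved the median difference of all tested genes: hair germ minus bulge was 0.11 as deposited, -0.05 after quantile normalization and -0.10 after median centring, with 952 genes called higher and 587 lower, 694 and 792, and 613 and 939. Dermal papilla minus hair germ was -0.15, 0.01 and 0.00016, with 1202 and 1852, 1521 and 1504, and 1446 and 1481. The day term already blocked arrays of the same day, and its removal is among the settings above.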
